A study of Homo sapiens with 6 samples.

Results

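Expression of 5 kinase genes was examined in imatinib-resistant K562 cells. They are the receptor tyrosine kinase genes KIT, MERTK and DDR2, the non-receptor tyrosine kinase gene BMX, and MAP3K9, a serine/threonine kinase of the mitogen-activated protein kinase cascade. They were taken by Ensembl identifier from the authors' list of genes shared by both comparisons, where all 5 were found among 674 genes. K562 is an established human chronic myeloid leukaemia line driven by the BCR-ABL1 fusion kinase, the target of imatinib. The labels describe 6 RNA-seq libraries, 2 each of the resistant lines IR1 and IR2, kept under imatinib without a break, and of the sensitive wild-type parent (WT). Imatinib exposure and resistance therefore cannot be told apart. The sources used here do not give the imatinib concentration, nor whether a resistant line is 1 clone. In every group the labels call 1 library a repeat without naming a separate culture, so the spread between libraries may be technical.

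Cells whose driving kinase is inhibited can signal through another kinase, which is known as bypass signalling. KIT is the receptor for stem cell factor and acts in blood stem cells, mast cells and germ cells, and it is itself inhibited by imatinib. MERTK, of the TAM family with AXL and TYRO3, binds GAS6 and protein S and is best known from macrophages that clear dying cells. DDR2 is a receptor for fibrillar collagen, best known from mesenchymal cells, and is also an imatinib target. BMX, of the TEC family with BTK, acts downstream of PI3-kinase. MAP3K9, also called MLK1, is a mixed-lineage kinase that can activate the JNK pathway.

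The measurement is a log2 fold change per gene and comparison, as the authors deposited it, where 1 unit is a doubling. The table holds 2 fold values per gene, and its header names neither the line behind each nor the numerator. They are called the second and the first comparison after their place in the table. A fold is called positive or negative, and a sign does not tell which of a resistant line and WT was higher. The values come without levels, errors, p-values or replicates, so the depth is unknown and no difference was tested. A gene called not listed has no fold in the table used here, and its expression was not analysed. For want of levels the K562 identity could not be checked on marker levels, and whether any of these kinases carries a bypass signal in the resistant cells was not tested.

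KIT and MAP3K9 had negative folds in both comparisons, while MERTK, DDR2 and BMX had positive folds in both. The 3 positive genes stand beside 74.3% of all listed genes (501 of 674), and the 2 negative genes beside 25.7% (173 of 674). Of all 674 listed genes, 0 had opposite signs in the comparisons, so a shared sign does not set these 5 apart. The WT libraries also serve both comparisons, so a shared sign is not a repeat of the result. KIT had the fold of greatest size among the 5 in the first comparison, and DDR2 in the second.

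**Figure D1:**
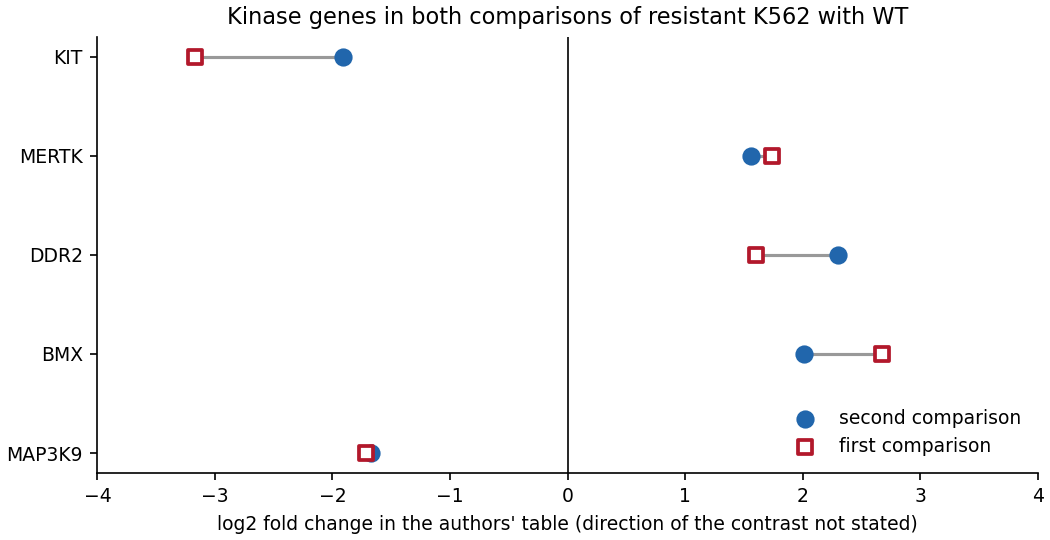
Log2 fold change of each of the 5 kinase genes (horizontal axis) in the second comparison (filled circles) and the first comparison (open squares) of the authors' deposited table, 1 value per comparison with no error. KIT and MAP3K9 lie left of 0 and the others right of 0, and the gap between comparisons is widest for KIT (-1.91 and -3.17).

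KIT (ENSG00000157404, chromosome 4) had log2 fold changes of -1.91 in the second comparison and -3.17 in the first comparison of the authors' deposited table. These are folds of 3.75 and 8.98 in size. Ordered by size among the 173 negative genes, KIT stood at place 143 in the second comparison and at place 35 in the first comparison of the authors' deposited table. KIT thus lay in the lower part of the negative genes in the second comparison and in the upper part in the first. On chromosome 4, KIT lies between PDGFRA and KDR, which encode receptors of related structure, and neither of them was among the listed genes.

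MERTK (ENSG00000153208, chromosome 2) had log2 fold changes of 1.56 in the second comparison and 1.74 in the first comparison of the authors' deposited table, or folds of 2.94 and 3.33. By size, MERTK stood at place 493 in the second comparison and 409 in the first among the 501 positive genes of the authors' deposited table. MERTK was close to the lowest absolute log2 fold change of any listed gene, which was 1.50 in both comparisons of the authors' deposited table. Its relatives AXL and TYRO3 were not among the listed genes.

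DDR2 (ENSG00000162733, chromosome 1) had log2 fold changes of 2.30 in the second comparison and 1.60 in the first comparison of the authors' deposited table, or folds of 4.93 and 3.03. By size, its place among the 501 positive genes of the authors' deposited table was 369 in the second comparison and 450 in the first. Of the 13 genes encoding ligands of KIT, MERTK and DDR2, 2 were listed, both fibrillar collagens and both positive. Beside this, 2.44% of genes with an annotated protein-coding transcript were listed (481 of 19684), and 74.3% of listed genes were positive. COL5A1, a type V collagen chain, had log2 fold changes of 3.73 in the second comparison and 1.64 in the first comparison of the authors' deposited table. COL1A1, the main type I collagen chain, had 5.27 and 4.39 in the same order in the authors' deposited table. The stem cell factor gene KITLG and the MERTK ligand genes GAS6 and PROS1 were not listed.

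BMX (ENSG00000102010, chromosome X) had log2 fold changes of 2.01 in the second comparison and 2.67 in the first comparison of the authors' deposited table, or folds of 4.02 and 6.38. By size, BMX stood at place 420 in the second comparison and at place 170 in the first among the 501 positive genes of the authors' deposited table. The TEC family genes TEC, BTK and TXK were not listed. BMX overlaps PIR on the opposite strand in GENCODE release 29. PIR was not listed, and because the strand setting of the counting is not given, reads of overlapping genes cannot be told apart.

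MAP3K9 (ENSG00000006432, chromosome 14) had log2 fold changes of -1.67 in the second comparison and -1.71 in the first comparison of the authors' deposited table, or folds of 3.18 and 3.28 in size. By size, MAP3K9 stood at place 164 in the second comparison and at place 139 in the first of the authors' deposited table, out of 173 negative genes. MAP3K9 was the single listed gene of 24 in the MAP3K list. Of the 23 MAP2K, MAPK and JNK scaffold genes that act below such kinases, 0 were listed. Over all genes with an annotated protein-coding transcript 2.44% were listed (481 of 19684), so counts this low in short lists say little. The long non-coding RNA gene MAP3K9-DT, which overlaps MAP3K9 in RefSeq, was not listed.

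The 5 genes differed in how their folds compared between the comparisons. The fold was larger in size in the first comparison for KIT, BMX, MERTK and MAP3K9, that is for 4 of 5, against 23.3% of all listed genes (157 of 674). With each comparison divided by its own median size of log2 fold change, the count stayed at 4 of 5. The share of all listed genes was then 57.7% (389 of 674), so most of the contrast in this count depends on the scaling. Taken as the size of the log2 fold change in the second comparison less its size in the first, the log2 difference in the authors' deposited table was -1.26 for KIT. For BMX it was -0.66, for MERTK -0.18 and for MAP3K9 -0.046, and for DDR2 it was 0.70, all from the authors' deposited table. The median of this difference over all listed genes of the authors' deposited table was 0.47, with quartiles of 0.02 and 0.99. DDR2 lay between the quartiles, and KIT, BMX, MERTK and MAP3K9 below the lower one. No listed gene had a size under 1.50 in either comparison. At sizes of 1.56 and 1.67 in the second comparison, MERTK and MAP3K9 could not have reached the median difference. Their low places, and their part in the count of 4 of 5, therefore follow in part from that lower limit. The genes were chosen with earlier results of these data known, there are only 5 of them, and the difference was not tested.

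KIT was the 1 gene of the 5 whose fold was over 2 times larger in the first comparison than in the second, which 1.93% of the listed genes showed (13 of 674). The ratio of its fold in the second comparison to that in the first was 0.418 in the authors' deposited table. Only 3 negative genes of the table passed this limit. The others were BMAL2, a circadian clock transcription factor gene, at -2.26 in the second comparison and -3.31 in the first, and the interleukin-1 receptor gene IL1R1 at -2.80 and -3.81, all in the authors' deposited table.

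**Figure D2:**
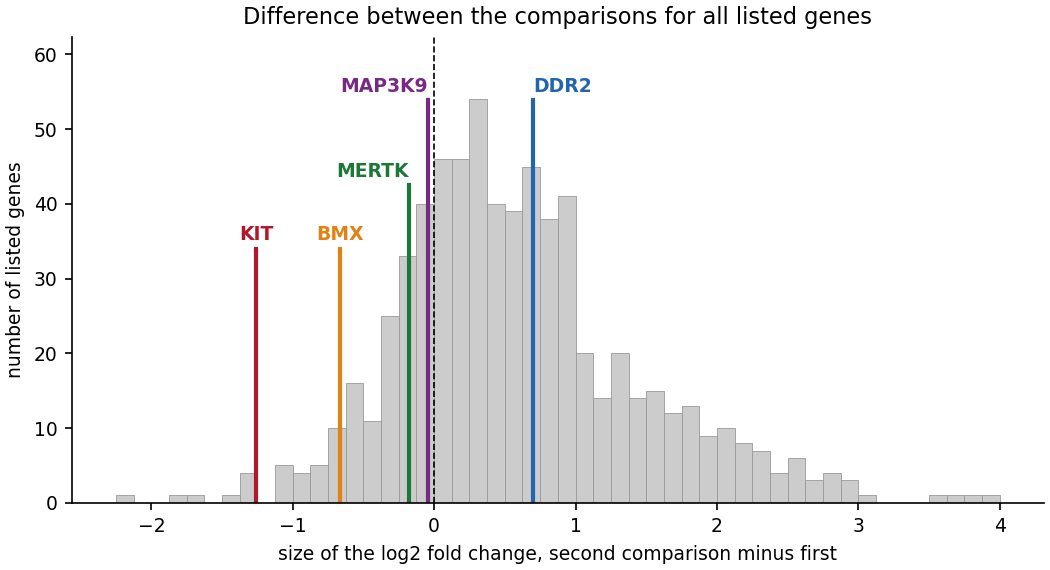
Number of listed genes (vertical axis) by the size of the log2 fold change in the second comparison less its size in the first (horizontal axis, 674 genes), with lines for the 5 kinase genes and a dashed line at 0. Most of the distribution lies right of 0 around a median of 0.47, KIT lies at -1.26 in the left tail, and DDR2 is the only 1 of the 5 right of 0.

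Among all tyrosine kinases, 6 of 90 were listed, which are 6.67% of them. Of these, 4 were among 58 receptor kinases and 2 among 32 non-receptor kinases. Positive folds were held by 5 of the 6, and KIT was the negative one. Beside KIT, MERTK, DDR2 and BMX these were EPHB6, an ephrin receptor without catalytic activity, and SRMS, a kinase related to the SRC family. EPHB6 had log2 fold changes of 5.05 in the second comparison and 3.51 in the first comparison of the authors' deposited table. SRMS had 1.66 in the second comparison and 1.52 in the first comparison of the authors' deposited table. The median over the 6 was 1.83 in the second comparison and 1.67 in the first, beside 2.49 and 1.91 over all listed genes of the authors' deposited table. ABL1, ABL2, the SRC family genes LYN and FYN, and the receptor genes PDGFRB, CSF1R and FLT3 were not listed. For comparison, 2.44% of the genes with an annotated protein-coding transcript were listed (481 of 19684). That share covers genes whether or not K562 cells express them, so it gives no enrichment.

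**Figure D3:**
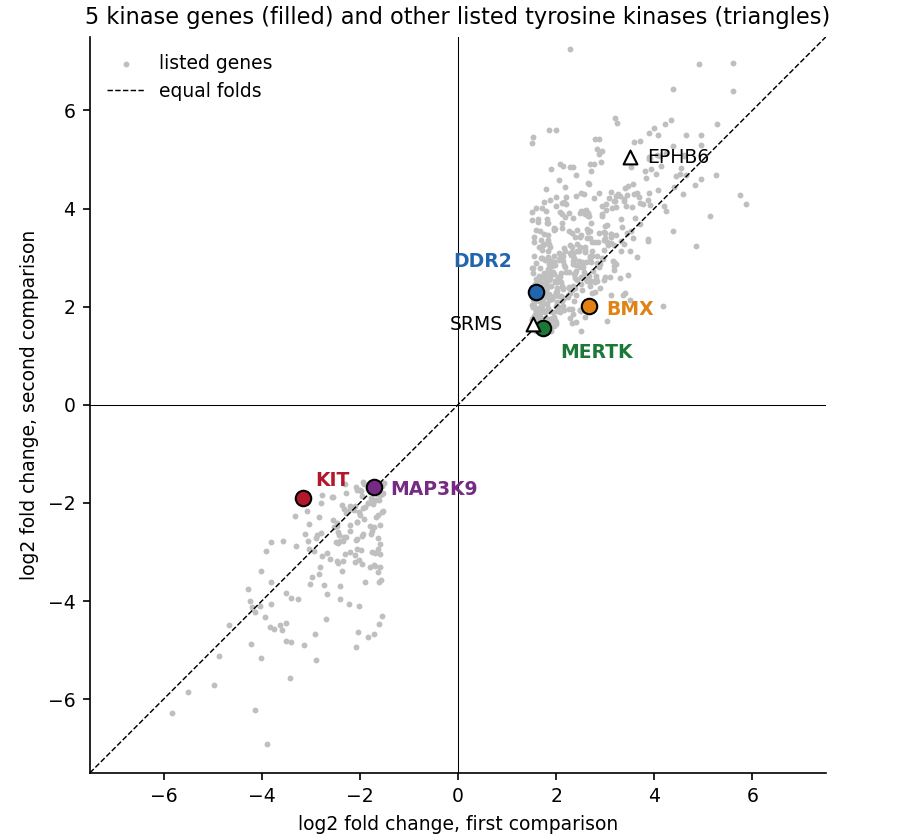
Log2 fold change in the first comparison (horizontal axis) and in the second comparison (vertical axis) for all 674 genes of the authors' deposited table (grey), the 5 kinase genes (filled) and the other listed tyrosine kinases EPHB6 and SRMS (triangles). The dashed line marks equal folds. EPHB6 lies far from the origin at 5.05 and 3.51 in the second and first comparisons, and KIT lies farther from the line than the other 4 filled points.

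A search for the catalytic motifs shared by most active protein kinases, in the translated reading frames of annotated transcripts, found 300 genes. Of these, 10 were listed (3.33%), beside 2.44% of all genes searched (481 of 19684). The search misses kinases whose sequence departs from the pattern, so the 10 are not all kinases among the listed genes. Positive folds were held by 7 of the 10 and negative folds by 3, close to the 74.3% and 25.7% of all listed genes. The 5 genes of interest and SRMS were among the 10. MYO3B, which joins a kinase to a myosin motor, had log2 fold changes of 4.16 in the second comparison and 3.17 in the first comparison of the authors' deposited table. AURKC, the aurora kinase of germ cell division, had 3.50 in the second comparison and 3.44 in the first comparison of the authors' deposited table. BRSK1, a brain kinase of the AMPK-related family, had 2.32 in the second comparison and 1.52 in the first comparison of the authors' deposited table. PIM1, a survival kinase induced by STAT5, was the negative gene beside KIT and MAP3K9, at -2.63 in the second comparison and -1.78 in the first comparison of the authors' deposited table. The median over the 10 was 1.83 in the second comparison and 1.56 in the first comparison of the authors' deposited table.

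Genes that pass on or restrain receptor kinase signals were looked up as well. Of 34 adaptor and effector genes downstream of KIT, 0 were listed, beside 2.44% of genes with a protein-coding transcript (481 of 19684). The 34 include GRB2, SHC1, the PI3-kinase subunits, STAT5A, STAT5B and the AKT genes. With so low a share over all genes, 0 of 34 does not show that these genes were unchanged. Of 47 negative regulators, 4 were listed, 2 with positive and 2 with negative folds, beside 74.3% and 25.7% of all listed genes. The positive ones were the adaptor gene DOK2, at 3.13 in the second comparison and 3.33 in the first, and the SHIP1 phosphatase gene INPP5D, at 1.89 and 1.78, in the authors' deposited table. Negative folds were held by SOCS1, at -3.22 in the second comparison and -2.44 in the first, and CISH, at -2.85 and -1.59, both cytokine-induced inhibitors, in the authors' deposited table. The positive pair acts as adaptor and lipid phosphatase and the negative pair as feedback proteins of cytokine receptors.

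A list of 21 transcription factor genes was drawn up for KIT-expressing blood cells. Of these, 2 were listed, beside 2.44% of genes with a protein-coding transcript (481 of 19684). Both were negative, beside 25.7% of all listed genes. ZFPM2, a cofactor of GATA factors, had log2 fold changes of -2.17 in the second comparison and -3.08 in the first comparison of the authors' deposited table. Whether ZFPM2 acts in blood cells was not examined, and its relative ZFPM1 was not listed. ID2, an inhibitor of basic helix-loop-helix factors, had -1.62 in the second comparison and -2.31 in the first comparison of the authors' deposited table. Both had the larger fold in the first comparison, as did 28.3% of the negative genes (49 of 173), and 2 genes allow no reading of a likeness to KIT. GATA1, GATA2, TAL1, RUNX1, MITF and MYB were not listed.

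Markers of other cells that use these kinases were looked up too. Of 12 mast cell markers, 0 were listed, beside 2.44% of genes with a protein-coding transcript (481 of 19684). The marker lists are short, so their counts say little. The macrophage list gave 1 of 13, ITGAM, at -2.44 in the second comparison and -1.58 in the first comparison of the authors' deposited table. The endothelial list gave 1 of 11, the junction gene ESAM, at 3.10 in the second comparison and 2.27 in the first comparison of the authors' deposited table. The fibroblast list gave 3 of 12, which were COL1A1, the smooth muscle actin gene ACTA2 at 3.92 in the second comparison and 2.09 in the first, and the fibronectin gene FN1 at -3.18 and -2.34, in the authors' deposited table. Whether such cells contribute to the kinase folds was not tested.

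**Figure D4:**
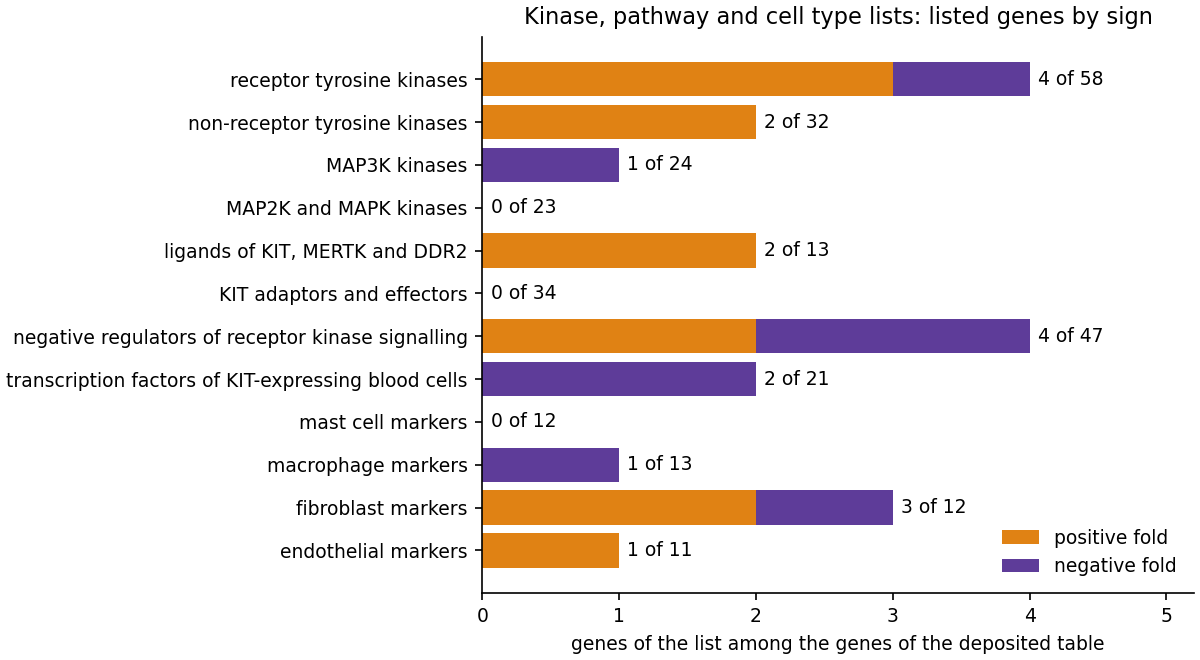
Number of genes of each list found among the genes of the deposited table (horizontal axis), split into positive folds (orange) and negative folds (purple), with the list size printed beside each bar. The receptor tyrosine kinases gave 4 of 58, the negative regulators 4 of 47, and the KIT adaptors and effectors 0 of 34. Over all genes with an annotated protein-coding transcript, 2.44% were listed.

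By distance in the plane of both log2 fold changes, taken over the 2 comparisons, the genes nearest to KIT in the authors' deposited table were ZFPM2 (distance 0.27), the embryonic globin gene HBE1 (0.38) and BMAL2 (0.38). The gene nearest to KIT was thus farther away than the nearest gene of each of the other 4. BMX had MS4A3 at a distance of 0.0057, C4orf54 at 0.030 and SLC44A1 at 0.066 in the authors' deposited table. MERTK had MYO16 at 0.026, OTP at 0.039 and MDM1 at 0.054, and DDR2 had TVP23A at 0.021, the pseudogene OR8B6P at 0.036 and TIMP3 at 0.082, in the authors' deposited table. MAP3K9 had BNIP3 at 0.024, TBX3 at 0.063 and COL18A1-AS2 at 0.074 in the authors' deposited table. With 2 values per gene, many genes share a pattern, and the likeness is a description. Between the 5 genes, MERTK and DDR2 were closest at 0.76, and KIT and BMX farthest apart at 7.03, in the authors' deposited table.

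The promoter sequences of the 5 genes are shown to set their base composition beside the sign of the folds. They come from RefSeq on the build GRCh38.p14, 250 bases before to 50 after the first listed start of each gene, 5′ to 3′ on the gene's strand. This build differs from the authors' hg19, so the positions hold for GRCh38.p14 alone. The windows lie at chr4:54657707-54658006 (plus strand) for KIT, chr14:70809464-70809763 (minus strand) for MAP3K9, chr2:111898357-111898656 (plus strand) for MERTK, chr1:162630613-162630912 (plus strand) for DDR2 and chrX:15500557-15500856 (plus strand) for BMX. Capitals mark the GC box letters GGGCGG or, on the other strand, CCGCCC.
KIT: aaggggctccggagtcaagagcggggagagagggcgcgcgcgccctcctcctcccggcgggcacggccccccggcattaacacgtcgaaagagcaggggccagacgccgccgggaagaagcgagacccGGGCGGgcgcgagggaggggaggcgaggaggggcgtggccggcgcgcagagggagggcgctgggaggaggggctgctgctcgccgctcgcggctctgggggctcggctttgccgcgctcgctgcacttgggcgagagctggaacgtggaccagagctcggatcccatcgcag
MAP3K9: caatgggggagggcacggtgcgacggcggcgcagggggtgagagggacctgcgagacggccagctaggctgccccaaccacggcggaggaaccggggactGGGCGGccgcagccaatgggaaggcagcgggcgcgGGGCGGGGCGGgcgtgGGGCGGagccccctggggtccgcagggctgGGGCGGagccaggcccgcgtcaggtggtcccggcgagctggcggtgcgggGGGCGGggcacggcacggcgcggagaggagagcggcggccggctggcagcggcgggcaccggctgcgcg
MERTK: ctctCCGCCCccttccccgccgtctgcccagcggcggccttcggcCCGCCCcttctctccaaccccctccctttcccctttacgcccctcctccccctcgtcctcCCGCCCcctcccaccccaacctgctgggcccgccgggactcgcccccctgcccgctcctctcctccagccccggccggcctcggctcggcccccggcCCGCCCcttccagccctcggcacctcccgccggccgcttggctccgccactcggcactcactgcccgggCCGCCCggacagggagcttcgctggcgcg
DDR2: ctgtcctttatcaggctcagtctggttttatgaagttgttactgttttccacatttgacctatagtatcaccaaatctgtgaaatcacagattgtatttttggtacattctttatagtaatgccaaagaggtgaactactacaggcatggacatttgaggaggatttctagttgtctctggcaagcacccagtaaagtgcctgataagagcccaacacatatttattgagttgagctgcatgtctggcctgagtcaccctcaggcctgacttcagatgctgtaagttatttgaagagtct
BMX: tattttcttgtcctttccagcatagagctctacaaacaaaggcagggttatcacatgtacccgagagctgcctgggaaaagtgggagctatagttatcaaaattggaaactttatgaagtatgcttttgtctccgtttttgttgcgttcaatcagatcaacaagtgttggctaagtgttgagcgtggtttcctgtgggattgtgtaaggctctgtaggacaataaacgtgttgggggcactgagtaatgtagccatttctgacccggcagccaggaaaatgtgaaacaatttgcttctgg

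The windows of KIT, MAP3K9 and MERTK were rich in G and C, at 74.3%, 80.3% and 78.3% of bases, and those of DDR2 and BMX were not, at 41.0% and 43.7%. The GC box occurred 1 time in the KIT window, 5 times in that of MERTK and 6 times in that of MAP3K9, where 2 matches share a base. It occurred 0 times in the DDR2 and BMX windows, and 45.0% of all 35116 promoter windows held it. Among first windows of listed genes it was in 57.4% of 326 positive and 65.1% of 109 negative genes. The letters AGATAA or TTATCT, the core of GATA factor sites, were in 0 of these 5 first windows and in 10.3% of all windows. The letters TGTGGT or ACCACA, the core of RUNX sites, were also in 0 of these 5 and in 13.1% of all windows. These matches describe letters and are not evidence of binding. Both negative genes thus had GC-rich windows, and the positive genes had windows of both kinds. Over the listed genes with a window, the median share of G and C was 60.7% for 326 positive genes and 67.3% for 109 negative genes. DDR2, BMX and MAP3K9 have further starts, whose windows held 44.3% to 49.0% G and C. Among these, the second DDR2 window held 1 match to the GATA letters and the second MAP3K9 window 1 match to the RUNX letters.

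**Figure D5:**
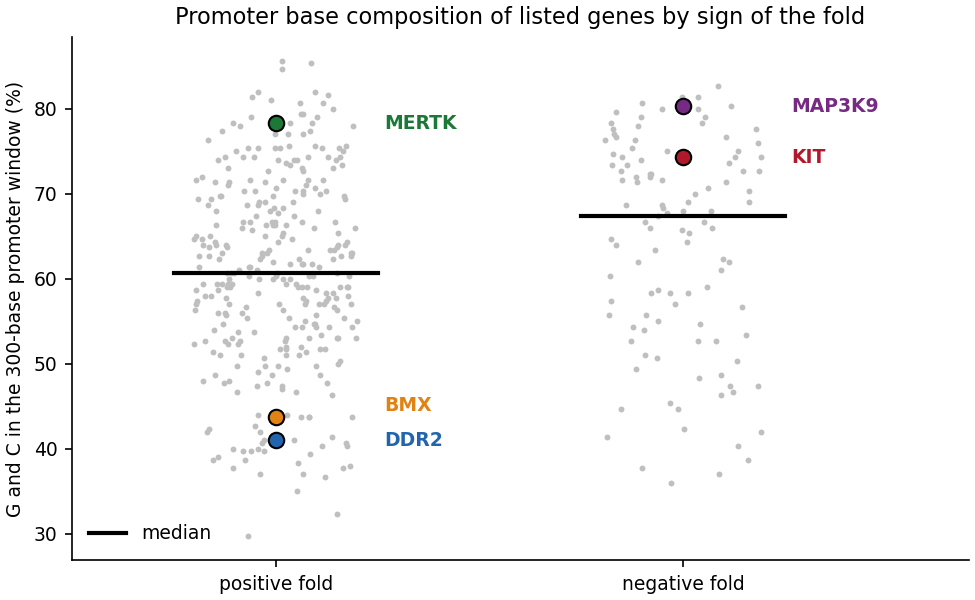
Share of G and C in the first listed promoter window (vertical axis, percent of 300 bases) for listed genes with positive folds (left, 326 genes) and negative folds (right, 109 genes), with bars at the medians. KIT and MAP3K9 lie above the median of the negative genes, MERTK lies at 78.3% near the top of the positive genes, and BMX and DDR2 lie near their lower end.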

How the data were processed

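RNA from 6 K562 libraries was sequenced on an Illumina HiSeq, per the labels' protocols. Per the submitters' processing notes, the tools were HISAT2 2.1.0, DESeq2 3.5, Subread and featureCounts, and the build was hg19. Their roles and settings, the limits of the selection, the strand setting and the handling of multi-mapping reads are not given there. The values are log2 fold changes that the authors deposited, 1 per gene and comparison, for 674 genes. Count models, leave-one-out fits and the replicate block planned for values per library were not run.

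Symbols were matched to 654 of 674 identifiers by a gene name table, and gene types to 657 by GENCODE release 29. Counts by sign, places by size, differences between comparisons and Euclidean distances were computed with Python 3.11.15, pandas 2.3.3 and numpy 2.4.6, with no test. The motif search took histidine-arginine-aspartate, any 4 residues and asparagine, then any 8 to 60 residues and aspartate-phenylalanine-glycine, in 3 reading frames of protein-coding transcripts. It was chosen after the files were seen and checked on planted sequences; identity between the proteins was not analysed here.

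The genes and lists were chosen with earlier results of these data known. Named genes are the 5 kinases, the 3 nearest symbols to each, up to 6 genes per list and up to 20 kinases found by sequence. IL1R1, PAK6 and the unlisted genes were named after the table was seen.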

Additional observations from a re-analysis of the deposited data

How the results depend on the processing

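No paired analysis was possible because the deposited columns hold 1 value per comparison and no values per library. For the same reason no library could be left out, no fold has an error, and the depth that limits each value is unknown. With each comparison divided by its median absolute log2 fold change, the difference of second minus first kept its sign for all 5 genes, at -0.73 for KIT, -0.22 for MERTK, 0.096 for DDR2, -0.48 for BMX and -0.17 for MAP3K9, in units of that median. On that scale 57.7% of all listed genes (389 of 674) were larger in the first comparison, against 23.3% as deposited. The count of 4 of 5 thus stands nearer to the share of the table. That share does not place single genes, and their places on that scale were not computed. Ranked by the mean of both comparisons, KIT stood at place 87 in place of 35 and 143, and BMX at 318 in place of 170. Among protein-coding genes alone, DDR2 stood at place 238 in the second comparison and BMX at 112 in the first. The 28 other values under that choice were within 1.5 times, but 20 of them are list counts. The listed genes behind those counts are all protein-coding, so the choice could not change them. Only 480 of the 674 genes are protein-coding by gene type. The places under that choice are thus out of fewer genes and do not compare directly with those over all genes.

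Where both log2 fold changes had to reach 2 in size, 397 genes were left. The receptor kinases then held 1 positive and 0 negative genes, and the non-receptor kinases 1 positive, so all tyrosine kinases held 2 positive and 0 negative. The counts were 0 negative for the MAP3K list, 1 positive for the ligands, 1 positive and 1 negative for the negative regulators, 1 negative for the transcription factors and 0 negative for the macrophage list. KIT, MERTK, DDR2 and MAP3K9 fail this minimum by construction. Without the 5 genes, a choice made after seeing the data, the tyrosine kinases held 2 positive and 0 negative genes. The wider motif search gave 16 genes, 12 positive and 4 negative.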

Other observations

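A wider motif search, which also took tyrosine for the first residue of the catalytic motif and leucine for the middle residue of the other, added 6 listed genes. Of these, 4 encode kinases. NEK6, a mitotic kinase, had log2 fold changes of -2.70 in the second comparison and -2.90 in the first comparison of the authors' deposited table. PRKG2, a cGMP-dependent kinase, had 2.69 in the second comparison and 2.38 in the first comparison of the authors' deposited table. ACVR1C, a type I receptor kinase of the TGF-beta family, had 2.95 in the second comparison and 2.06 in the first, and GRK5, a G protein-coupled receptor kinase, 1.68 and 1.65, in the authors' deposited table. The remaining genes, ZNF334 and ZNF527, are zinc finger genes and not kinases. Neither search found the kinase gene PAK6, listed at 3.57 in the second comparison and 1.98 in the first comparison of the authors' deposited table. Counts from these searches are therefore not counts of all listed kinases.

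The genes with the largest fold in the first comparison relative to the second were named after their values were seen. TC2N, at 2.01 in the second comparison and 4.17 in the first comparison of the authors' deposited table, had the widest gap of this kind, and 7 of the 674 genes had a wider one than KIT.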
